A study of Mus musculus with 2 samples.

Results

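The genes Irf8, Irf4, Batf3, Zbtb46, Id2, Spi1, Klf4, Tcf4 and Nr4a3 encode transcription factors that set the identity of dendritic cells (DCs), monocytes and macrophages. They were listed by name, without use of their values, and all 9 were found among the 31053 genes of the count tables. Their levels were measured by droplet single-cell RNA sequencing of tumor-infiltrating immune cells (TIIs) from C57BL/6J mice bearing B16-OVA tumors, a melanoma line that expresses ovalbumin. The control library is labelled PBS, and the creatine library came from mice given 10.5 mg of creatine intraperitoneally per animal per day. Per the labels, day 14 tumors were taken, 4 tumors were combined for each group, live (DAPI-) CD45.2+ cells were sorted and 10000 were loaded per group. The methods also name day 10 for these sorts and 5 mice per group, and the protocol text of the control library names the creatine injection too, so that the control was assigned by its treatment entry and its title. Because there was 1 library per condition, no comparison between creatine and control could be tested, and the spread between mice is unknown. All intervals below are exact 95% intervals that cover counting error only.

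DC subsets arise from common bone marrow precursors under different transcription factors. Irf8 and Batf3 act together in type 1 conventional DCs, which cross-present antigen to CD8 T cells, whereas Irf4 and Klf4 act in type 2 conventional DCs. Tcf4 (also called E2-2) maintains plasmacytoid DCs, and Id2 blocks E proteins such as Tcf4 and favors conventional DCs. Zbtb46 marks the conventional DC lineage, Spi1 (PU.1) is needed across the myeloid lineage, Klf4 acts in monocyte differentiation and Nr4a3 is an orphan nuclear receptor linked to DC maturation and migration.

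Barcodes under 300 UMIs or under 100 genes, and those over 25% mitochondrial UMIs, were left out, so that 7241 of 7649 were kept in the control and 6229 of 6503 with creatine. Median depths were 7688 and 8475 UMIs per kept cell. Cells were assigned to 7 gates by markers that did not include the 9 genes. The control library gave 62 type 1 DCs, 107 cells of the type 2 gate, 38 Ccr7+ DCs, 30 plasmacytoid DCs, 272 classical monocytes, 69 nonclassical monocytes and 942 macrophages. The creatine library gave 38, 50, 13, 11, 446, 135 and 363 cells of the same gates in the same order. The libraries shared 30 barcodes, of which 9 were gated in both. Without the shared barcodes, no count of genes past the fold used below moved by over 1.5 times, and no ratio moved beyond its counting interval.

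The gates were checked with 4 further markers each. All 4 were highest in their own gate in both libraries for type 1 DCs, Ccr7+ DCs and plasmacytoid DCs, 3 of 4 for nonclassical monocytes and for macrophages, and 2 of 4 for classical monocytes. For the type 2 gate, which required Cd209a or Mgl2, 0 of 4 were. Flt3, the receptor of the DC growth factor Flt3 ligand, was at 42.6 CPM there in the control and 64.6 CPM in the creatine library (CPM, UMIs of the gene per 1000000 UMIs summed over the cells of a gate). The summed level of the 6 classical monocyte markers in this gate was 829 CPM in the control and 1492 CPM in the creatine library, against 5249 and 6219 CPM in classical monocytes. These cells are therefore called the type 2 gate and not type 2 DCs. Their macrophage marker sum was 292 and 161 CPM. In type 1 DCs, the classical monocyte sum was 423 and 747 CPM.

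The promoter sequences of Irf8, Irf4 and Nr4a3 are shown because the balance of Irf8 and Irf4 and the concentration of Nr4a3 in 1 gate are described below. The RefSeq table for build GRCm38.p6 held promoters of 7 of the 9 genes, and those of Spi1 and Tcf4 were missing from it. The stretches end at the gene start of GENCODE or RefSeq, whichever comes first. All 3 lie on the + strand, at chr8:120736108-120736357 for Irf8, chr13:30748983-30749225 for Irf4 and chr4:48045055-48045152 for Nr4a3. Capitals mark GAS motifs (TTCNNNGAA, bound by STAT factors) in Irf8 and the PU box (GAGGAA, or TTCCTC on the other strand) in Irf4. In Nr4a3 they mark TGACG (or CGTCA on the other strand), which is only a part of the full CREB motif TGACGTCA.
Irf8: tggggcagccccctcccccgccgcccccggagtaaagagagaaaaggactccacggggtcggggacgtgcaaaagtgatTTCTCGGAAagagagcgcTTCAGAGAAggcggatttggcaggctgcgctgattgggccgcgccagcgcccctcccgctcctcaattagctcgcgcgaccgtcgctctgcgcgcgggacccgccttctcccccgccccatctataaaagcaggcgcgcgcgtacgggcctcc
Irf4: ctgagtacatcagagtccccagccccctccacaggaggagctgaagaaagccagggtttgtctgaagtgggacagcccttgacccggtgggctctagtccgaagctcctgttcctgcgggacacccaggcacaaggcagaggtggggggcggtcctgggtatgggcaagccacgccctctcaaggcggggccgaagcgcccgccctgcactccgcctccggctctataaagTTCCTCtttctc
Nr4a3: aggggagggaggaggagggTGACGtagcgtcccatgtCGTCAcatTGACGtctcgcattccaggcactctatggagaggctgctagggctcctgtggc

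The Irf8 stretch held 2 GAS matches, at -171 and -153 from the RefSeq start, and the Irf4 stretch 1 PU box match at -19. The Nr4a3 stretch held 3 TGACG matches at -231, -213 and -205, and the full CREB motif had no match there. Searched on both strands, GAS matches occurred in 8.3% of the 32851 promoters of 300 bases in the table and PU box matches in 28.3%. TGACG matches occurred in 20.8% of them and full CREB motif matches in 1.79%. These matches describe letters in the window and say nothing of whether a factor was bound.

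In the GENCODE annotation (build GRCm38, the mm10 of the labels), Irf8 spans chr8:120736358-120756694, Irf4 chr13:30749226-30766976, Batf3 chr1:191097847-191108945 and Nr4a3 chr4:48045153-48086447 on the + strand. On the - strand lie Zbtb46 at chr2:181387762-181459426, Id2 at chr12:25093799-25097140 and Klf4 at chr4:55527143-55532466, and Spi1 lies at chr2:91082390-91115756 on the + strand. The model Gm20388 overlaps Irf8 on the same strand and had 0 UMIs in both libraries.

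Irf8 was highest in plasmacytoid DCs and type 1 DCs in both libraries. Its level in plasmacytoid DCs was 3441 CPM (interval 3203 to 3692) in the control and 2940 CPM (2624 to 3284) in the creatine library. In type 1 DCs it was 2146 CPM (2062 to 2232) and 1868 CPM (1766 to 1975). Ccr7+ DCs came next in both libraries, and the intervals of these top 3 gates did not overlap within a library.

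Below them, Irf8 lay between 224 and 316 CPM in the 4 other gates of the control library and between 434 and 526 CPM in those of the creatine library. The type 2 gate was the lowest of the 7 in both. Among these 4 gates, neighbouring intervals overlapped in the creatine library, and in the control only that of the type 2 gate was apart.

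**Figure D1:**
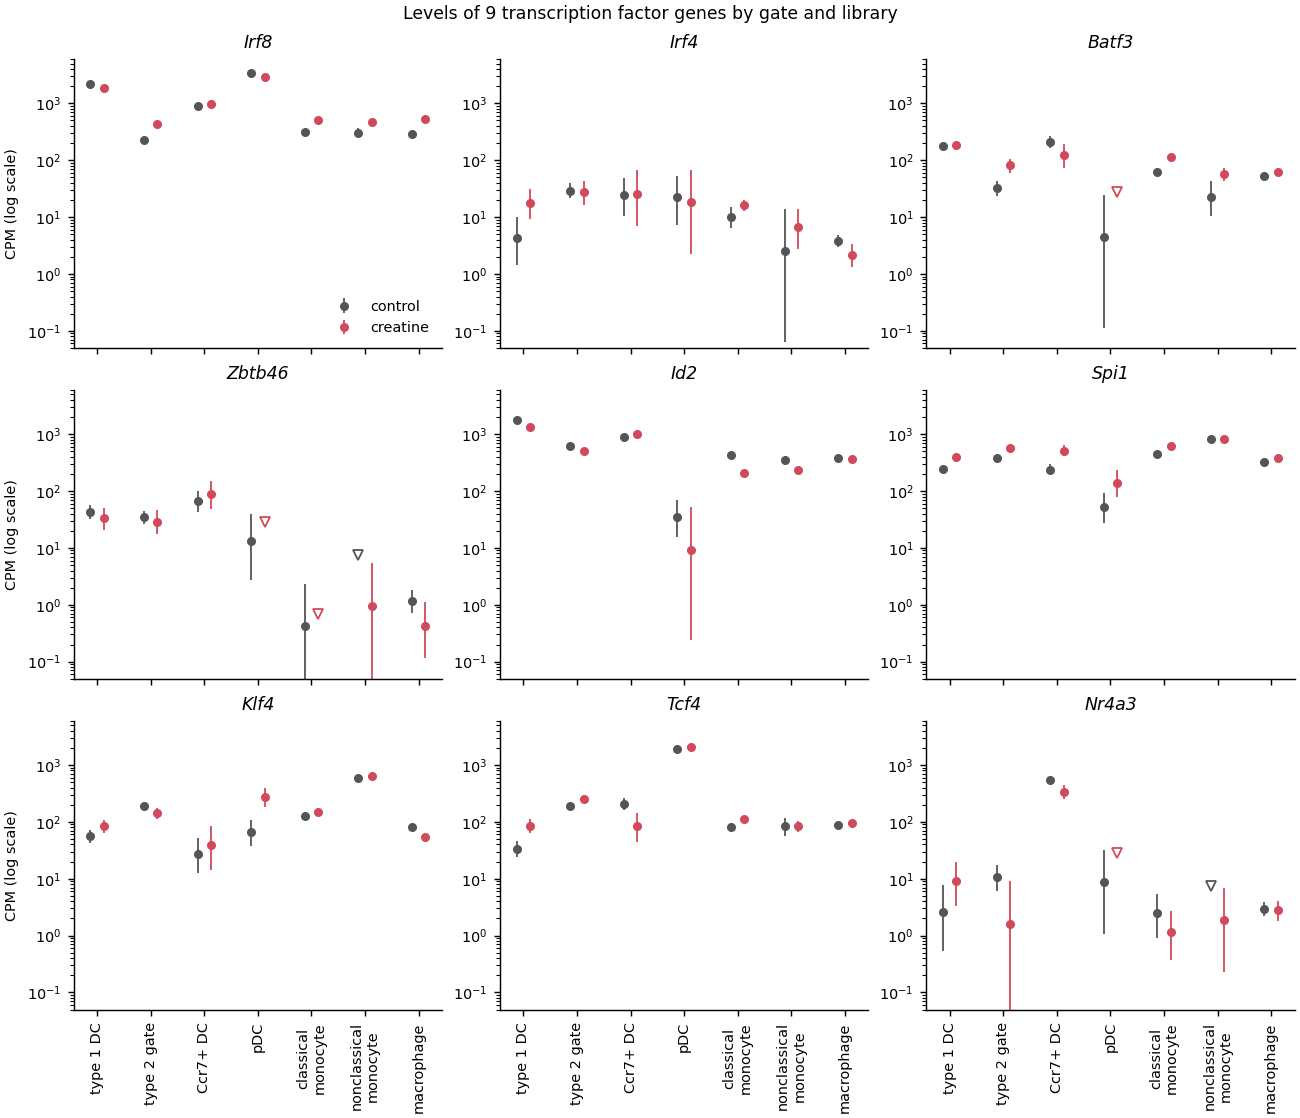
Level of each of the 9 genes (CPM, log scale) in the 7 gates, with control in gray and creatine in red; points are levels, bars exact 95% Poisson intervals (cut at the lower axis limit), and open triangles mark gates with 0 UMIs, drawn at the level of 3 UMIs. Tcf4 stood at 1876 and 2069 CPM in plasmacytoid DCs and at or under 253 CPM in the 6 other gates, and Nr4a3 at 543 and 335 CPM in Ccr7+ DCs and at or under 10.7 CPM elsewhere.

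Tcf4 and Id2, an E protein and its inhibitor, lay at opposite ends in plasmacytoid and type 1 DCs of the control library, while Ccr7+ DCs and then the type 2 gate came next after the highest gate for both genes. Tcf4 (chromosome 18, + strand) reached 1876 CPM (1701 to 2063) in control and 2069 CPM (1805 to 2361) in creatine plasmacytoid DCs. The next gates were Ccr7+ DCs at 204 CPM in the control and the type 2 gate at 253 CPM in the creatine library. A single cell held up to 13 of the 67 UMIs in the former and 40 of the 157 UMIs in the latter. Every plasmacytoid DC held Tcf4, with 5 to 25 UMIs per cell in the control and 11 to 27 in the creatine library.

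Id2 was lowest in plasmacytoid DCs, at 35.5 CPM from 8 UMIs in the control and 9.36 CPM from 1 UMI in the creatine library. It was highest in type 1 DCs, at 1740 CPM (1665 to 1818) and 1342 CPM (1255 to 1433), followed by Ccr7+ DCs at 906 and 1023 CPM and the type 2 gate at 625 and 497 CPM. The intervals of these gates did not overlap within a library. Without gated DCs that carried classical monocyte markers (defined below), the creatine order turned, with 1393 CPM in the type 2 gate and 1287 CPM in type 1 DCs. These levels rested on 8 and 18 cells and are given without intervals. With all gated cells, the plasmacytoid DC gate held high Irf8 and Tcf4 with little Id2, and the type 1 gate high Irf8 and Id2 with Tcf4 at 33.8 and 85.5 CPM.

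Batf3, the partner of Irf8 in type 1 DCs, was about as high in Ccr7+ DCs as in type 1 DCs of the control library. In the creatine library it was lower in Ccr7+ DCs, from 19 UMIs. Batf3 stood at 180 CPM (157 to 207) in control and 186 CPM (155 to 222) in creatine type 1 DCs. In Ccr7+ DCs it was 207 CPM (161 to 263) and 122 CPM (73.6 to 191), so that the intervals of both gates overlapped in each library. Only 1 Batf3 UMI was found in plasmacytoid DCs, in the control. Batf3 was also present in classical monocytes, at 63.1 and 116 CPM, and in macrophages, at 53.4 and 61.7 CPM.

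Zbtb46 was higher in type 1 DCs, Ccr7+ DCs and the type 2 gate than in monocytes and macrophages, with intervals that did not overlap. In the control it measured 67.1 CPM in Ccr7+ DCs, 43.4 CPM in type 1 DCs and 34.6 CPM in the type 2 gate. In the creatine library the same gates held 90.1, 33.0 and 29.1 CPM. These 3 levels had overlapping intervals within each library, except that Ccr7+ DCs were above the type 2 gate in the creatine library.

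Macrophages held Zbtb46 at 1.18 and 0.430 CPM. Classical monocytes held 1 Zbtb46 UMI in the control and 0 with creatine, where 0 of 446 cells allows a share of cells with a UMI of up to 0.673% (3 counts of the total, the limit used wherever a count was 0). Nonclassical monocytes held 0 and 1, and plasmacytoid DCs 3 and 0. The type 2 gate, whose check markers did not set it apart, thus carried Zbtb46 within the interval of type 1 DCs.

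Nr4a3 was concentrated in Ccr7+ DCs, the mature migratory state. Its level there was 543 CPM (466 to 629) in the control and 335 CPM (250 to 439) in the creatine library. The highest level in any other gate was 10.7 CPM in the control, in the type 2 gate, and, in the creatine library, that of type 1 DCs, from 6 UMIs. In Ccr7+ DCs, 34 of 38 control cells and 8 of 13 creatine cells held Nr4a3, with medians of 3 and 1 UMIs per cell and at most 22 and 16.

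Spi1 and Klf4 were highest in nonclassical monocytes. Spi1 measured 810 CPM (724 to 904) in control and 821 CPM (767 to 877) in creatine nonclassical monocytes, then 442 and 615 CPM in classical monocytes. It was lowest in plasmacytoid DCs, at 53.2 and 140 CPM. In the control, type 1 DCs (241 CPM) and Ccr7+ DCs (238 CPM) were next lowest and did not differ beyond their intervals. When cells that passed several gates or carried other markers were kept, Spi1 in the creatine library was 547 CPM in nonclassical and 608 CPM in classical monocytes.

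Klf4 measured 596 CPM (523 to 677) and 638 CPM (590 to 688) in nonclassical monocytes, at least 2 times its level in any other gate of the same library. The type 2 gate held 192 CPM in the control and 140 CPM in the creatine library. Ccr7+ DCs were lowest, at 27.5 and 38.6 CPM.

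Irf4 was low throughout. Its highest level was in the type 2 gate, at 29.3 CPM (21.3 to 39.3) from 44 UMIs in the control and 27.4 CPM (16.0 to 43.9) from 17 UMIs in the creatine library. Ccr7+ DCs, at 24.4 and 25.7 CPM, and plasmacytoid DCs, at 22.2 and 18.7 CPM, had intervals that overlapped it. When cells that passed several gates or carried other markers were kept, or when each cell had equal weight, the control level was higher in Ccr7+ DCs. With the stricter gates, Irf4 was at 9.24 CPM in the type 2 gate and 30.1 CPM in Ccr7+ DCs of the creatine library.

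Levels in T cells are given beside those of the gates, and they need not equal the background from free RNA or mixed droplets. Spi1 was at 7.04 and 3.48 CPM in T cells of the control and creatine library, Batf3 at 2.54 and 1.99, Klf4 at 4.42 and 3.97 and Zbtb46 at 4.01 and 1.88 CPM. The Zbtb46 levels of monocytes and macrophages were below those of T cells, and the Batf3 and Klf4 levels there were over 5 times higher. For Zbtb46 in nonclassical monocytes, with 0 and 1 UMIs, the intervals overlapped those of T cells. Irf8, Id2, Irf4 and Nr4a3 are expressed by lymphocytes, so T cells are no blank for them, and Irf8 in the control type 2 gate (224 CPM) was close to its T cell level (216 CPM).

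After thinning each cell to 2000 UMIs, Irf8 was found in 57 of 62 control type 1 DCs (91.9%, exact binomial interval 82.2 to 97.3%) and in 26 of 35 creatine cells (74.3%, 56.7 to 87.5%). Unthinned, the shares were 98.4% and 97.4%. Irf8 in type 2 gate cells was found in 35.5% and 42.0% after thinning, and in T cells in 24.6% and 25.2%, at median depths that the thinning made equal. Batf3 was found in 30.6% and 28.6% of thinned type 1 DCs against 0.442% and 0.324% of thinned T cells. Irf4 was found in no thinned type 1 DC, for which 0 cells allow shares of up to 4.84% and 8.57%, and unthinned in 3 of 62 control and 5 of 38 creatine cells.

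Irf8 and Batf3 were found together in 53 of 62 control type 1 DCs (85.5%) and 34 of 38 creatine type 1 DCs (89.5%). In classical monocytes, both were found in 26.8% (21.7 to 32.5%) of control and 46.2% (41.5 to 50.9%) of creatine cells. In macrophages, the shares were 44.9% and 64.2%. These shares were not thinned, and the creatine cells of both gates were deeper, with medians of 9463 against 8162 UMIs and 23562 against 15723 UMIs.

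Id2 and Tcf4 were counted against each other within each gate, which compares gates and libraries and not the amounts of the genes. Id2 gave 98.1% (97.4 to 98.6%) of the summed UMIs of both in control type 1 DCs and 94.0% (92.3 to 95.4%) in creatine type 1 DCs. In plasmacytoid DCs it gave 1.86% and 0.450%. Between these ends lay the type 2 gate with 76.8% and 66.2%, and Ccr7+ DCs with 81.6% and 92.4%.

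In classical monocytes, the Id2 share was 83.8% (81.7 to 85.8%) in the control and 65.5% (63.0 to 68.0%) in the creatine library. In macrophages it was 81.3% and 79.2%. Irf8 gave 88.4% (84.8 to 91.5%) of the Irf8 and Irf4 UMIs in the control type 2 gate and 94.1% (90.7 to 96.5%) in the creatine one, the lowest of the 7 gates in both libraries.

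**Figure D2:**
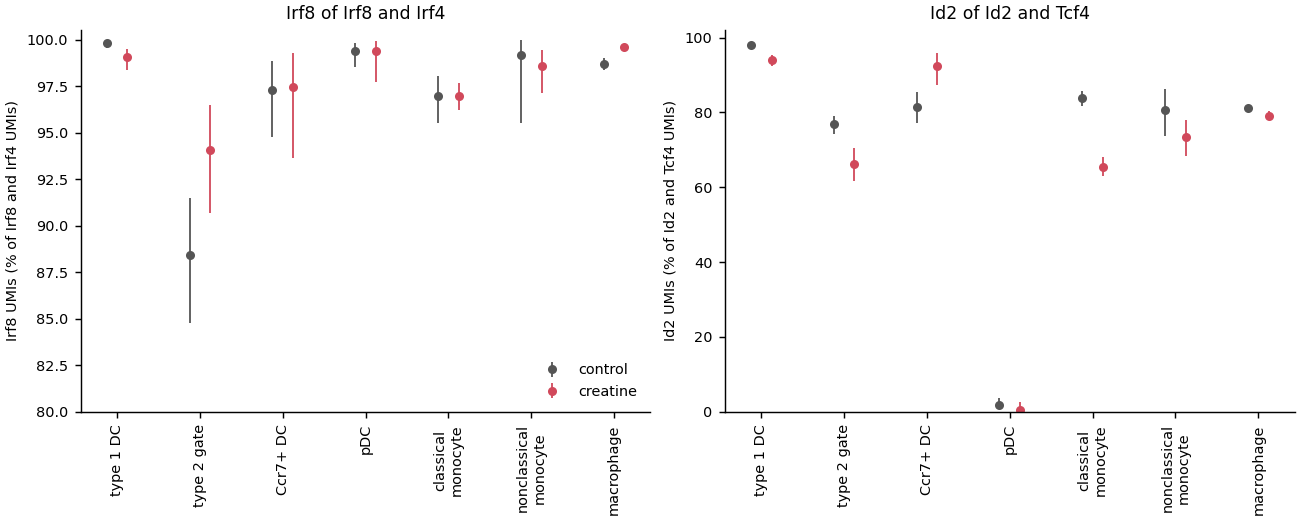
Share of Irf8 in the summed UMIs of Irf8 and Irf4 (left, axis from 80 to 100%) and of Id2 in those of Id2 and Tcf4 (right) in each gate, control in gray and creatine in red, with exact binomial intervals. The type 2 gate was lowest on the left at 88.4 and 94.1%, and plasmacytoid DCs stood apart on the right at 1.86 and 0.450%.

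Creatine and control were compared gate by gate by the log2 ratio of CPM (creatine over control), for genes with at least 10 UMIs over both libraries in the gate, and a ratio of at least 1.5 in either direction was counted. In type 1 DCs, 4 of the 8 counted genes passed this fold against 32.3% of all 8731 genes with 10 UMIs. In the type 2 gate 4 of 9 did, against 31.3% of all genes. In Ccr7+ DCs 4 of 9 did, against 44.7%, and in plasmacytoid DCs 2 of 4, against 42.1%. These backgrounds show how often shallow gates passed the fold, and the counts of Ccr7+ and plasmacytoid DCs were near them. The genes short of 10 UMIs were Nr4a3 in type 1 DCs and Irf4, Batf3, Zbtb46, Id2 and Nr4a3 in plasmacytoid DCs.

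In classical monocytes 5 of 8 genes passed the fold against 24.1% of all genes. In nonclassical monocytes 2 of 6 did, against 30.3%, and in macrophages, the deepest gate, 3 of 9 against 13.5%. Zbtb46 was short of 10 UMIs in both monocyte gates, as were Irf4 and Nr4a3 in nonclassical monocytes. The median log2 ratio of the counted genes was 0.32 in type 1 DCs and 0.45 in classical monocytes, where the medians of all genes were -0.02 and 0.00. In the type 2 gate and in macrophages it was -0.09 and -0.04, beside 0.02 and -0.03 for all genes. In Ccr7+ DCs, plasmacytoid DCs and nonclassical monocytes it was 0.16, 0.77 and 0.06, beside -0.04, 0.08 and -0.01.

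**Figure D3:**
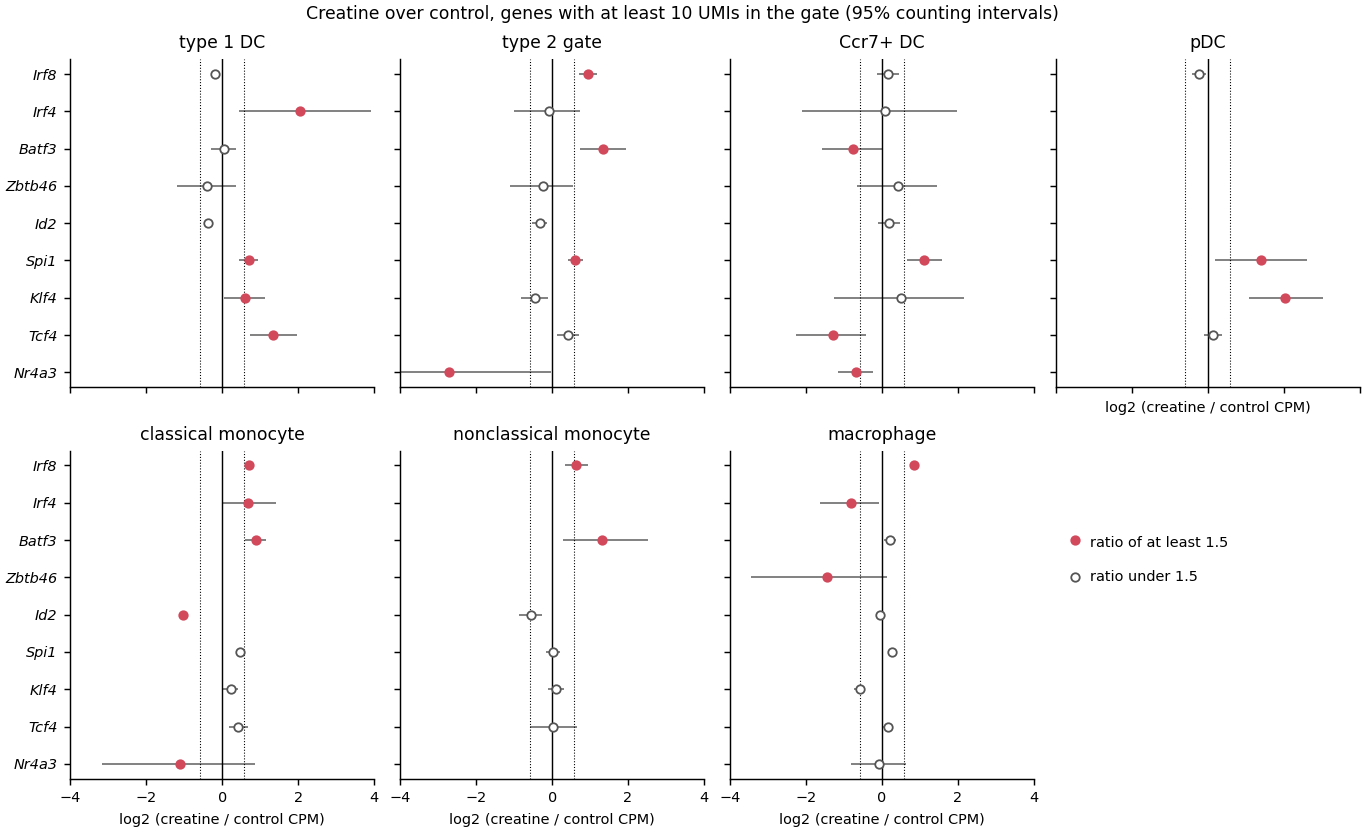
Log2 ratio of CPM, creatine over control, of the genes with at least 10 UMIs in each of the 7 gates; bars are exact 95% intervals (cut at the axis limits), dotted lines mark a ratio of 1.5 either way and red points lie at or past it. Irf8 lay past the fold in the type 2 gate, both monocyte gates and macrophages (0.63 to 0.96) and between -0.23 and 0.16 in type 1, Ccr7+ and plasmacytoid DCs, while Spi1 lay past it in these 3 gates and the type 2 gate (0.61 to 1.40).

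In type 1 DCs, Batf3, Irf8, Id2 and Zbtb46 stayed within the fold, and Tcf4, Spi1, Klf4 and Irf4 were past it and higher in the creatine library. Batf3 had a log2 ratio of 0.04 (-0.29 to 0.37), Irf8 one of -0.20 (-0.30 to -0.10) and Id2 one of -0.38 (-0.49 to -0.26), with Zbtb46 at -0.39 (-1.19 to 0.36). Tcf4 was 33.8 CPM in the control and 85.5 CPM in the creatine library, with a log2 ratio of 1.34 (0.72 to 1.96). A single cell held up to 6 of its 39 control UMIs and 15 of its 57 creatine UMIs. Spi1 was 241 and 393 CPM, a log2 ratio of 0.70 (0.46 to 0.95).

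Klf4 was 55.5 and 84.0 CPM in type 1 DCs, a log2 ratio of 0.60 (0.05 to 1.14), found in 32 of 62 control but 11 of 38 creatine cells. A single cell held up to 6 of its 64 control UMIs and 17 of its 56 creatine UMIs. Irf4 rested on 5 and 12 UMIs, 8 of the latter in a single cell, with a log2 ratio of 2.05 (0.44 to 3.91). With the stricter gates, which required 1 marker more, the Irf4 ratio was -0.73. Because fewer cells then passed several gates and were left out, a stricter gate can hold more cells than the main one. Dividing cells made up 59.7% of control and 31.6% of creatine type 1 DCs. Without them, the log2 ratios were -0.56 for Irf8 and -0.74 for Id2, and 0.67 for Spi1. With the stricter gate, Irf8 was at 0.08 and Tcf4 at 0.80 (0.02 to 1.57), so that the direction of Irf8 depended on the gate.

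As given above, classical monocyte markers were higher in the type 1 DCs of the creatine library. The summed type 2 gate markers there were 63.3 CPM with 6 of 6 found in the control and 211 CPM with 5 of 6 in the creatine library, and the type 1 markers 3018 and 2541 CPM. Summed plasmacytoid DC markers in type 1 DCs were 23.4 CPM in the control and 40.5 CPM in the creatine library, against 8164 and 6067 CPM in plasmacytoid DCs. Their part in the Tcf4 ratio was not tested. The type 2 gate held more Tcf4, Spi1, Klf4 and Irf4 than type 1 DCs in both libraries, and the part of cells with its markers in the type 1 ratios was not tested. Without gated cells that carried at least 5 classical monocyte marker UMIs per 10000, which left 39 and 18 type 1 DCs with sums of 193 and 205 CPM, the log2 ratios were 1.63 (0.92 to 2.35) for Tcf4 and 0.86 (0.52 to 1.20) for Spi1. Klf4 then had a ratio of -0.29 (-1.25 to 0.58) and Irf8 one of -0.08 (-0.22 to 0.06). The ratios of Tcf4 and Spi1 were no smaller without these cells, and that of Klf4 changed sign. The split used classical monocyte markers only and did not remove cells by the markers of other gates. The part of such cells in the remaining ratios was not tested.

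In the type 2 gate, Irf8 was 224 CPM (201 to 249) in the control and 434 CPM (384 to 489) in the creatine library, with a log2 ratio of 0.96 (0.72 to 1.19). A single cell held up to 34 of its 336 control UMIs and 50 of its 269 creatine UMIs. Batf3 was 32.0 and 80.7 CPM, with a log2 ratio of 1.34 (0.74 to 1.94), and Spi1 had one of 0.61 (0.41 to 0.80). Irf4 and Klf4, the factors of type 2 DCs, did not pass the fold, with log2 ratios of -0.09, from 44 and 17 UMIs, and -0.45 (-0.81 to -0.10). Nr4a3 was at 16 UMIs in the control and 1 UMI in the creatine library, with a log2 ratio of -2.72 (-8.11 to -0.04).

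Several of these ratios moved when cells with classical monocyte markers were left out, which kept 40 control and only 8 creatine cells of the type 2 gate. The log2 ratio of Irf8 was then 0.24 (-0.38 to 0.83), that of Spi1 0.28 (-0.14 to 0.68) and that of Batf3 2.22 (1.02 to 3.43). Id2, at -0.33 (-0.52 to -0.14) with all cells, was at 0.84 (0.59 to 1.08), and Tcf4, at 0.43 with all cells, was at -0.71 (-1.72 to 0.16). The monocyte marker sums were 267 and 231 CPM in the cells that remained. Irf4 moved both ways, to 1.24 (-0.48 to 2.80) in these cells and to -2.04 (-4.38 to -0.38) with the stricter gate, where Irf8 was at 1.44 and Batf3 at 0.80. The part of cells with monocyte markers in the values of the whole gate was not tested beyond this.

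**Figure D4:**
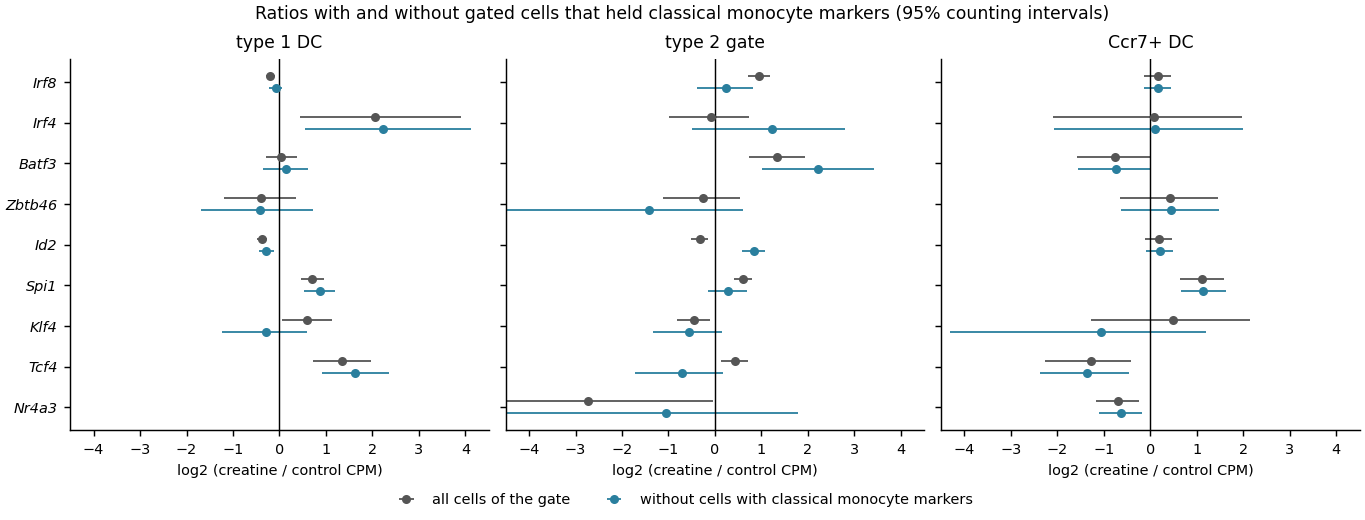
Log2 ratio of CPM, creatine over control, in type 1 DCs, the type 2 gate and Ccr7+ DCs, for all gated cells (gray) and without cells with at least 5 classical monocyte marker UMIs per 10000 (blue), with exact 95% intervals cut at the axis limits. In the type 2 gate Irf8 moved from 0.96 to 0.24 and Id2 from -0.33 to 0.84, whereas in Ccr7+ DCs Spi1 moved from 1.11 to 1.14 and Tcf4 from -1.29 to -1.36.

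In Ccr7+ DCs, Irf8 and Id2 were close between libraries, Spi1 was higher and Nr4a3, Batf3 and Tcf4 were lower in the creatine library. Spi1 was 238 CPM (188 to 297) in the control and 515 CPM (408 to 641) in the creatine library, with a log2 ratio of 1.11 (0.65 to 1.58). Nr4a3 had a log2 ratio of -0.70 (-1.17 to -0.25), Batf3 one of -0.76 (-1.58 to -0.01) and Tcf4 one of -1.29 (-2.27 to -0.42). Irf8 was at 0.16 (-0.13 to 0.45) and Id2 at 0.18 (-0.11 to 0.46). Zbtb46, from 22 and 14 UMIs, was at 0.43 (-0.65 to 1.46), an interval too wide to call it close or changed.

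The Ccr7+ gate held 38 and 13 cells, and the creatine counts were 52 UMIs for Nr4a3, 19 for Batf3 and 13 for Tcf4. Summed macrophage markers in this gate were 189 CPM in the control and 122 CPM in the creatine library, and classical monocyte markers 79.3 and 167 CPM. With the stricter gate, the log2 ratios were 1.13 for Spi1, -0.47 for Nr4a3, -0.70 for Batf3 and -1.04 for Tcf4. Without cells carrying monocyte markers they were 1.14, -0.63, -0.74 and -1.36.

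In plasmacytoid DCs, Irf8 and Tcf4 were close between libraries, with log2 ratios of -0.23 (-0.42 to -0.04) and 0.14 (-0.10 to 0.38). Irf8 was at 0.02 with the stricter gate and at 0.10 when cells of several gates were kept, so its direction depended on the gate. Klf4 was 66.5 CPM in the control and 272 CPM in the creatine library, with a log2 ratio of 2.03 (1.08 to 3.03). Its 15 control UMIs lay in 3 of 30 cells, 10 of them in a single cell, and its 29 creatine UMIs in 4 of 11 cells, 16 of them in a single cell. Without the 5% of cells with the most UMIs the log2 ratio was 1.03 (-0.18 to 2.22).

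Spi1 in plasmacytoid DCs rested on 12 and 15 UMIs, with a log2 ratio of 1.40 (0.21 to 2.63). It was at 0.39 (-1.27 to 1.99) with the stricter gate, which held 32 and 15 cells against 30 and 11 in the main gate. The classical monocyte marker sum of this gate, which includes Ly6c2, a gene that plasmacytoid DCs express, was 1871 CPM with 4 of 6 markers found and 3174 CPM with 2 of 6. The part of these in the Klf4 and Spi1 values was not tested.

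Classical monocytes had higher Irf8 and Batf3 and lower Id2 in the creatine library. Irf8 was 316 CPM (294 to 340) in the control and 516 CPM (495 to 538) in the creatine library, with a log2 ratio of 0.71 (0.59 to 0.83). Batf3 was 63.1 and 116 CPM, with a log2 ratio of 0.88 (0.61 to 1.15). Id2 was 428 CPM (403 to 455) and 211 CPM (198 to 225), a log2 ratio of -1.02 (-1.15 to -0.89).

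Irf4, at 9.96 and 16.1 CPM in classical monocytes, had a log2 ratio of 0.69 (0.00 to 1.42). Nr4a3 rested on 6 and 5 UMIs. The summed macrophage markers of this gate were 612 CPM in the control and 271 CPM in the creatine library, and their part in these ratios was not tested. With the stricter gate, which left 159 and 239 cells, the log2 ratio was 0.89 for Irf8, 0.51 for Batf3, 0.19 for Irf4 and -0.93 for Id2, so that Batf3 and Irf4 no longer passed the fold.

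Nonclassical monocytes carried the same pair, Irf8 at 305 and 472 CPM with a log2 ratio of 0.63 (0.34 to 0.93), and Batf3 at 22.6 and 56.4 CPM with one of 1.32 (0.30 to 2.51) from 9 control UMIs. The factors that were highest in this gate were close, with log2 ratios of 0.02 (-0.17 to 0.21) for Spi1 and 0.10 (-0.12 to 0.32) for Klf4. Id2 was 345 and 232 CPM, a log2 ratio of -0.57 (-0.88 to -0.26), just short of the fold, and one of -0.96 (-1.26 to -0.65) with the stricter gate, which held 65 and 152 cells. Batf3 was at 0.80 with that gate, and macrophage marker sums were 312 and 164 CPM.

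In macrophages, Irf8 was 292 CPM (284 to 300.3) in the control and 526 CPM (512 to 541) in the creatine library, with a log2 ratio of 0.85 (0.79 to 0.91). The median macrophage held 4 Irf8 UMIs in the control and 9 with creatine, not adjusted for median depths of 15723 and 23562 UMIs. Klf4 was 82.7 and 55.2 CPM, a log2 ratio of -0.58 (-0.73 to -0.44), just short of the fold of 1.5. Spi1 had a log2 ratio of 0.27 (0.21 to 0.33) and Id2 one of -0.04 (-0.10 to 0.02).

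Irf4 in macrophages was 3.83 and 2.15 CPM with a log2 ratio of -0.83 (-1.63 to -0.09), and Zbtb46, at 20 and 4 UMIs, had one of -1.45 (-3.46 to 0.12). Zbtb46 was below its T cell level. Batf3 had a log2 ratio of 0.21 (0.06 to 0.36), and of 0.69 without dividing cells, which made up 49.4% of control and 48.5% of creatine macrophages.

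Across gates, Spi1 was higher in the creatine library in 7 of 7 gates, with log2 ratios from 0.02 to 1.40, and Tcf4 in 6 of 7. Id2 was lower in 5 of 6 gates with enough UMIs and Nr4a3 in 4 of 4. In macrophages these ratios were small, at -0.04 (-0.10 to 0.02) for Id2 and -0.07 (-0.82 to 0.64) for Nr4a3. Nr4a3 rested on 6 and 5 UMIs in classical monocytes and on 16 and 1 in the type 2 gate. In the type 2 gate, Id2 and Tcf4 changed sign without cells carrying monocyte markers, and Nr4a3 when cells of several gates were kept. Irf8 was higher in 5 of 7 gates, all but type 1 and plasmacytoid DCs. In nonclassical monocytes, the ratios of Spi1 and Tcf4 were both 0.02, and both were -0.02 when mitochondrial and ribosomal protein genes were left out of the total. The gates come from the same 2 libraries and are not replicates of the treatment.

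The 67 other regulators of DCs and myeloid cells came from a list that was not picked by their ratios, but was chosen with earlier results of these data known. In type 1 DCs, 20 of 56 with enough UMIs were higher and 4 lower in the creatine library past the fold of 1.5, where 15.1% of all genes were higher and 17.2% lower. In the type 2 gate, 17 of 59 were higher and 2 lower, beside 14.7% and 16.6% of all genes. In Ccr7+ DCs 12 of 46 were higher and 12 lower, beside 19.3% and 25.4%, and in plasmacytoid DCs 8 and 7 of 39, beside 22.9% and 19.2%, which is near the background. In classical monocytes the counts were 16 and 7 of 63, beside 10.7% and 13.4%, and in nonclassical monocytes 13 and 4 of 58, beside 15.9% and 14.4%. In macrophages they were 5 and 4 of 66, beside 5.25% and 8.27%.

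Among the interferon regulatory factors of the list, directions differed between genes and gates. Irf1, an interferon-induced factor, was 81.5 and 171 CPM in type 1 DCs, 144 and 323 CPM in the type 2 gate and 171 and 360 CPM in Ccr7+ DCs, with log2 ratios of 1.07 (0.66 to 1.48), 1.17 (0.88 to 1.45) and 1.08 (0.52 to 1.64). It was also higher in classical monocytes, nonclassical monocytes and macrophages, at 0.85, 0.99 and 0.92. Only in plasmacytoid DCs was Irf1 lower, with a log2 ratio of -1.06 (-2.10 to -0.14). Irf2 passed the fold in type 1 DCs, at 1.00 (0.58 to 1.43), and in Ccr7+ DCs, at 0.85 (-0.02 to 1.70), and in no other gate. Irf7, the factor behind type I interferon output, was at 1.52 (1.17 to 1.88) in type 1 DCs. It was at 0.92 (0.62 to 1.21) in the type 2 gate and 1.42 (0.85 to 2.00) in plasmacytoid DCs. Without cells carrying monocyte markers, Irf7 was at 1.75 in type 1 DCs and 0.18 (-0.48 to 0.79) in the type 2 gate. In Ccr7+ DCs Irf7 was at -0.59 (-1.47 to 0.22), in nonclassical monocytes at 1.34 (0.81 to 1.90), and in classical monocytes and macrophages at 0.14 and 0.30. Irf3, which is activated by nucleic acid sensors, was at -0.86 (-1.80 to 0.01) in type 1 DCs, and Irf9, a partner of interferon signaling, passed the fold in none of the 7 gates.

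Cebpb and Zeb2 were also higher in creatine type 1 DCs. Cebpb, a factor of monocyte differentiation, was 33.8 and 138 CPM in type 1 DCs, a log2 ratio of 2.03 (1.47 to 2.61), and of 1.04 (0.15 to 1.93) without cells carrying monocyte markers. Zeb2, a repressor that acts in plasmacytoid DCs and monocytes, was 16.5 and 112 CPM in type 1 DCs, with log2 ratios of 2.77 (2.03 to 3.58) and 2.48 (1.51 to 3.54) in the same order. Bcl11a, an upstream regulator of plasmacytoid DCs, was at 1.12 (0.58 to 1.66) in type 1 DCs. It was also at 1.01 (0.68 to 1.34) in the type 2 gate and 1.68 (1.09 to 2.31) in classical monocytes. Without cells carrying monocyte markers, Bcl11a was at 1.81 in type 1 DCs and 0.38 (-0.64 to 1.31) in the type 2 gate. In plasmacytoid DCs, nonclassical monocytes and macrophages it was within the fold, at 0.13 (-0.26 to 0.50), 0.34 (-0.51 to 1.28) and -0.17 (-0.76 to 0.40).

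Mycl, which supports type 1 DC proliferation, was lower in creatine type 1 DCs, with a log2 ratio of -0.63 (-1.25 to -0.03), and Klf2 had one of -0.72 (-1.25 to -0.21). Without cells carrying monocyte markers neither passed the fold, with 0.04 (-0.75 to 0.79) for Mycl and -0.22 (-0.88 to 0.40) for Klf2. In Ccr7+ DCs, Stat3 was at -0.75 (-1.17 to -0.34) and Stat5a, which acts downstream of the GM-CSF receptor, at 1.24 (0.41 to 2.08). Runx2, a factor that lets plasmacytoid DCs leave the bone marrow, was 310 and 609 CPM in plasmacytoid DCs, a log2 ratio of 0.97 (0.46 to 1.48).

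Of the 17 growth factor and cytokine receptors, 6 of 15 with enough UMIs were higher and 0 lower past the fold in type 1 DCs, and 6 of 17 were higher and 2 lower in the type 2 gate, beside the shares of all genes given above. The counts higher and lower were 3 and 4 of 11 in Ccr7+ DCs, 1 and 1 of 10 in plasmacytoid DCs, 2 and 0 of 16 in classical monocytes, 3 and 1 of 16 in nonclassical monocytes and 0 and 2 of 17 in macrophages. In the type 2 gate Csf1r, the receptor of monocytes and macrophages, was 100.6 and 174 CPM with a log2 ratio of 0.79 (0.42 to 1.16), and of 0.30 (-0.88 to 1.35) without cells carrying monocyte markers. Kit, a receptor of precursors, was in the same gate at -0.97 (-1.88 to -0.15). Without cells carrying monocyte markers, Kit was there at -0.64 (-1.93 to 0.44). Flt3 in Ccr7+ DCs was 131 and 64.4 CPM, a log2 ratio of -1.03 (-2.19 to -0.01), and Csf2ra, a chain of the GM-CSF receptor, was at 1.16 (0.42 to 1.91).

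For each gene, the genes of most similar level were sought by Pearson's r of log2(CPM + 1) over 14 points (7 gates in 2 libraries), among genes with at least 100 UMIs in the gates that were no gate markers. The points share libraries and gates, and r is given as a description. Irf8 was most like Arid3b (r = 0.90), Pmepa1 (0.88) and Rab3ip (0.87). Batf3 was most like Apool (0.93), Fgl2 (0.93) and Id2 (0.92), the only case in which another of the 9 genes was among the top 3.

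Tcf4 was most like Atp1b1 (0.95), Csf2rb2 (0.95) and Prkca (0.92), and Zbtb46 like Kit (0.96), H2-DMb2 (0.93) and Ccnd2 (0.90). Nr4a3 was most like Serpinb9 (0.96), Aebp2 (0.94) and Plxnc1 (0.94), and Spi1 like Lfng (0.96), Akap10 (0.95) and Limd2 (0.95). For Klf4 the genes were Grk2 (0.94), Arhgef1 (0.92) and Secisbp2 (0.92), for Id2 Prkar2a (0.96), Psip1 (0.93) and Tbc1d9 (0.93), and for Irf4 Gpr183 (0.88), St8sia1 (0.87) and Rpl24 (0.84). Among the 9 genes themselves, the lowest r were those of Tcf4 with Id2 (-0.84) and with Batf3 (-0.82).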

How the data were processed

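The authors made the deposited UMI counts per gene and cell with Cell Ranger (3.0.2, mm10, per the submitters' processing notes) from 3' libraries, with no further normalization. From these, each gate and library was pooled, and a gene's UMIs were divided by all UMIs of the pool (CPM). Gates required 3 or 4 of 6 to 8 markers with a UMI, including defining ones, a limit on C1q genes (under 10 per 10000 UMIs outside macrophages) and under 5 per 10000 UMIs of T, NK, B, neutrophil or melanoma markers; cells passing several gates were left out (67 control and 159 creatine), which served against doublets, and no doublet caller was run. The markers were listed first, and the gate rules and the split by monocyte markers were chosen after values had been seen. The genes and lists were chosen with earlier results of these data known. The text names all 9 genes, the 3 most similar genes of each, and regulators or receptors past 1.5-fold with at least 50 UMIs in a DC gate, of which examples are given and some are not reported here. Intervals were exact Poisson, conditional binomial (ratios) and Clopper-Pearson (shares), computed with scipy 1.17.1 and checked on counts with known changes. TMM factors came from edgeR 4.0.16. Gated depths ran from 106804 UMIs (creatine plasmacytoid DCs) to 16981459 (control macrophages).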

Additional observations from a re-analysis of the deposited data

Results flagged for a closer look

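Several genes passed the fold of 1.5 in opposite directions between gates, with each counting interval on its own side of 0. Irf8 and Klf4 also had intervals on either side of 0, but their ratios below 0 stayed within the fold. None of these differences was tested, since each condition has 1 library. Irf4 had a higher creatine-to-control ratio in type 1 DCs than in macrophages by 2.88 on the log2 scale, and in classical monocytes than in macrophages by 1.52. The type 1 DC ratio of Irf4 rested on 5 and 12 UMIs, 8 of the latter in a single cell, and was -0.73 with the stricter gate. The classical monocyte ratio did not pass the fold with that gate. For Batf3, the log2 ratio exceeded that of Ccr7+ DCs by 2.10 in the type 2 gate, by 1.64 in classical monocytes and by 2.08 in nonclassical monocytes. With the stricter gate, Batf3 in classical monocytes did not pass the fold. Its nonclassical ratio rested on 9 control UMIs, and its Ccr7+ ratio on 19 creatine UMIs. For Tcf4, the log2 ratio was 2.63 higher in type 1 DCs than in Ccr7+ DCs, where it rested on 13 creatine UMIs.

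Outside the 7 gates, in cells that the comparisons above did not use, Irf8 had a log2 ratio of 0.80 in NK cells, 442 CPM in the control and 769 CPM in the creatine library. Nr4a3 had one of 0.71 in NK cells, from 30 and 107 UMIs.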

How the results depend on the processing

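No paired analysis was possible because each condition has 1 library. Under the stricter gate, the 9 genes past the fold numbered 1 in plasmacytoid DCs, 2 in classical and 4 in nonclassical monocytes, and the other regulators 15 in classical monocytes. With cells of several gates or other markers kept, 4 genes passed in nonclassical monocytes, and without dividing cells 15 other regulators in macrophages. Without the filter on low counts, 6 genes passed in plasmacytoid DCs and 5 in nonclassical monocytes, and 39 and 27 other regulators in Ccr7+ and plasmacytoid DCs. At a fold of 2, the genes past it numbered 2 in type 1 DCs, the type 2 gate, Ccr7+ DCs and classical monocytes, and 1 in nonclassical monocytes and macrophages; the other regulators numbered 8 in the type 2 gate, plasmacytoid DCs and classical monocytes, 13 in Ccr7+ DCs, 6 in nonclassical monocytes and 3 in macrophages. Ratios past the fold that changed sign under an alternative were Irf4 in type 1 DCs (-0.73, stricter gate), Klf4 in type 1 DCs (-0.056 with equal weight for each cell, -0.29 without cells with monocyte markers), Nr4a3 in the type 2 gate (0.17, cells of several gates kept) and Zbtb46 in macrophages (0.23, without dividing cells). The causes were not tested. Leaving out cells with monocyte markers and leaving out shared barcodes were chosen after seeing the data; the latter moved none of the 53 ratios. TMM scaling moved the log2 ratios of plasmacytoid DCs by -0.17 and of the other gates by -0.06 to 0.08, and neither it nor median-of-ratios scaling changed the sign of any ratio past the fold. Gates with 11 and 13 creatine cells, 1 library per condition and combined tumors limit all ratios.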

Other observations

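Irf8 in T cells was close between libraries, at 216 and 230 CPM (log2 ratio 0.10, 0.05 to 0.14), unlike in NK cells, macrophages and monocytes. The difference between these cell types was not tested. Id2, which NK cells need for their development, was 1234 and 1300 CPM in NK cells and 737 and 814 CPM in T cells. Tcf4 was 80.9 and 66.9 CPM in NK cells and 14.1 and 16.2 CPM in T cells. Irf4, a factor of activated T cells, was 23.8 and 26.4 CPM in T cells and at most 1.91 CPM in NK cells.

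Spi1 and Zbtb46 were lower in T cells of the creatine library, at 7.04 and 3.48 CPM and at 4.01 and 1.88 CPM, log2 ratios of -1.02 (-1.33 to -0.71) and -1.09 (-1.52 to -0.68). In NK cells the same genes had log2 ratios of -0.09 (-0.87 to 0.74) and 0.04 (-0.95 to 1.11). Spi1 UMIs lay in 166 of 3371 control and 104 of 2879 creatine T cells, and Zbtb46 UMIs in 138 and 63. A single T cell held up to 26 of the 274 control Spi1 UMIs and 6 of the 128 creatine ones. The macrophage gate held 942 control and 363 creatine cells, with Spi1 at 319 and 386 CPM and Zbtb46 below its T cell level. The part of free RNA or mixed droplets in the T cell values was not tested.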
